A study of Mus musculus with 15 samples.

Results

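Polyadenylated RNA of 33 genes of cholesterol and fatty acid synthesis was followed through 15 libraries of mouse embryonic stem (ES) cells. The genes were chosen by name, from the enzymes of both pathways and the proteins that switch them on or off. Earlier results of these data were known when they were chosen. All 33 were found among the 18762 genes of the deposited table. All 33 also passed the filter on low values (2 or more libraries with an FPKM of 1 or higher), which kept 12929 genes. FPKM divides a gene's sequenced fragments by its transcript length and by the size of the library, so its levels can be set side by side between genes. The cells were of strain C57BL/6N and either wild type (WT) or Mettl5-/- (knockout, KO), and the labels give no further allele and do not say whether the KO libraries come from separate clones. METTL5 is the methyltransferase that places N6-methyladenosine on the RNA of the small ribosomal subunit. Each genotype was sampled as ES cells at day 0, as embryoid bodies (EBs) at day 6, which formed in LIF (-) medium in dishes coated to keep cells from attaching, and at day 6 of culture in N2B27, a defined medium used for neural differentiation. Every culture had 2 WT libraries, named Ctr (replicate 1) and WT (replicate 2), and 3 KO libraries.

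Cells build cholesterol from acetyl-CoA. The mevalonate pathway makes the isoprenoid farnesyl diphosphate, and the sterol enzymes turn it into squalene, close squalene into lanosterol and trim lanosterol to cholesterol. Fatty acids start from the same acetyl-CoA: it is released from citrate, carboxylated to malonyl-CoA and joined into palmitate, which elongases lengthen and desaturases give double bonds. Both pathways answer to the SREBP transcription factors, which are made as membrane proteins of the endoplasmic reticulum. SCAP escorts them to the Golgi for release when sterols are low, and the INSIG proteins hold SCAP back when sterols are high. SREBP-2, from Srebf2, acts mostly on cholesterol genes, and SREBP-1, from Srebf1, mostly on fatty acid genes. At promoters SREBPs bind sterol regulatory elements and act together with NF-Y, which binds the CCAAT box, and with SP1, which binds GC boxes. Neural cells make much of their own cholesterol.

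Promoter windows, 250 bases before to 50 after the start of transcription, were found for 26 of the 33 genes in RefSeq (GRCm38.p6). Fdps, Fdft1, Sqle, Stard4, Scd1, Scd2 and Fads1 had no entry. Of the 26 genes, 5 had more than 1 window, which made 34 windows in all, and a gene was counted as holding a motif where any of its windows did. The 5 windows below are shown because they belong to genes of each main response described further on: Hmgcs1 (chr13:119690101-119690400, plus strand), Nsdhl (chrX:72918271-72918570, plus strand) and Cyp51 (chr5:4104648-4104947, minus strand) of the cholesterol pathway, the feedback gene Insig1 (chr5:28071162-28071461, plus strand) and Fasn (chr11:120824498-120824797, minus strand) of fatty acid synthesis. Capitals mark the letters CCAAT on either strand (ATTGG when read on the printed strand) and the sterol regulatory element TCACNCCAC.
Hmgcs1: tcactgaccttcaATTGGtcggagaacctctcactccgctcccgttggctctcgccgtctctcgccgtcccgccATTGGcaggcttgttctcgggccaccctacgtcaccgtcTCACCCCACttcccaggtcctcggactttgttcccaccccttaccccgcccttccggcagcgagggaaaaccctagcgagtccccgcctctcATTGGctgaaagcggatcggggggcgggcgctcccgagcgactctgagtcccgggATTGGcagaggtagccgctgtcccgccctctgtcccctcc
Nsdhl: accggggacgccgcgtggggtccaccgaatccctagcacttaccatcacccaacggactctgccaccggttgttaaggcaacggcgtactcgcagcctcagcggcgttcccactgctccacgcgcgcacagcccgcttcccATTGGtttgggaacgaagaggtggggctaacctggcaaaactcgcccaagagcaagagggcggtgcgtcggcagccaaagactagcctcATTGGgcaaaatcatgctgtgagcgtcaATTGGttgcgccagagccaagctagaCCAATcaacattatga
Cyp51: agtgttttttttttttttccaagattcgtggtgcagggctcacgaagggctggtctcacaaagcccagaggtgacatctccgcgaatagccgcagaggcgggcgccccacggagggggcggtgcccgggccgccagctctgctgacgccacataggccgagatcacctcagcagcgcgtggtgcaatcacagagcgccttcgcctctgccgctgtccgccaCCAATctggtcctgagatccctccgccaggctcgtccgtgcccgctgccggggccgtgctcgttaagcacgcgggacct
Insig1: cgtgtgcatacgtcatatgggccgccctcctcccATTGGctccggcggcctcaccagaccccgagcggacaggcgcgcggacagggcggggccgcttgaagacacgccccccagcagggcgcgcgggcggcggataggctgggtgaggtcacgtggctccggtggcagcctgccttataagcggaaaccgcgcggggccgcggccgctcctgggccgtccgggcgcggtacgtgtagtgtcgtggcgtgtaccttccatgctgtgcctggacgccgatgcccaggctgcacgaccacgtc
Fasn: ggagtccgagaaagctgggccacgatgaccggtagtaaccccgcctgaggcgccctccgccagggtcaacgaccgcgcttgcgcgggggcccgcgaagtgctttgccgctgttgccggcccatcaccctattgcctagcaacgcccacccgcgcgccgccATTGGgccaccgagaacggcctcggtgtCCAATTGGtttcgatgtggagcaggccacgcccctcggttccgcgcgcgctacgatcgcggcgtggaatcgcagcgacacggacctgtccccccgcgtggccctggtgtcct
The Hmgcs1 window held the letters TCACNCCAC once, with its first base at position -137 from the start of transcription. It was the single match among the 26 genes (3.85%), against 1.45% of the 10362 tested genes with a window. CCAAT, searched on both strands and counted also where matches overlap, as they do in the Fasn window, was present in at least 1 window of 21 of 26 genes (80.8%), against 43.7% of the tested genes counted in the same way, and in 22 of the 34 windows. By role it was found in 6 of 7 mevalonate genes (all but Acat2), 9 of 9 sterol enzymes, 4 of 5 SREBP control genes (all but Scap), 2 of 4 fatty acid synthesis genes (not Acaca or Elovl6) and not in Fads2. The only Acaca window begins at 84195188 of chromosome 11, inside the gene, which spans 84129635 to 84401651 on the plus strand. It does not cover the outermost start of Acaca. The same holds for Fasn and Srebf1, both on the minus strand. The Fasn window ends at 120824797 and the gene at 120825166. The outermost Srebf1 window ends at 60222831 and the gene at 60224186. At least 3 matches in a single window were found in 8 of the genes and in 6.04% of the tested genes, and at least 4 in Hmgcs1, Mvk and Nsdhl and in 2.16% of the tested genes. GC boxes (GGGCGG, both strands) were in 21 genes (80.8%), against 69.8%, and in 25 windows, and the E-box CACGTG was in 5 genes (19.2%), against 11.9%, and in 6 windows. These are matches of letters in a window and say nothing of whether a factor was bound.

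The FPKM of a library summed to 451651 to 554986, and 10953 to 11807 genes reached an FPKM of 1. In each culture all KO libraries had less Mettl5 than all WT libraries. Its FPKM was 20.9 and 19.03 in WT and 10.7, 7.21 and 9.10 in KO ES libraries. Mettl5 stood at 17.7 and 19.8 in WT and 9.07, 5.22 and 5.41 in KO EB libraries and 8.37 and 8.65 in WT and 3.91, 6.41 and 3.29 in KO N2B27 libraries. The log2 difference, KO minus WT, was -1.42 ± 0.23 (SE) in EBs (adjusted p = 0.00576), and it did not pass the test in ES cells (-1.08 ± 0.23, adjusted p = 0.675) or N2B27 (-0.82 ± 0.23, adjusted p = 0.204). The EB call ended when the compared groups were fitted alone (adjusted p = 0.107), and the EB difference was -1.34 without WT EB replicate 2. In N2B27 the difference was called without KO N2B27 replicate 2 (-1.05, adjusted p = 0.0217). Over the mean of the 3 cultures of libraries that share a name it was -1.11 ± 0.09 (adjusted p = 0.00835), a call that ended without the filter on low values (adjusted p = 0.0993). The cultures differed in their marker genes. The summed FPKM of 7 ES cell markers was 2273 to 2388 in ES libraries, 634 to 855 in EBs and 71.1 to 164 in N2B27, while that of 7 neural progenitor markers was 7.31 to 11.04, 38.2 to 90.1 and 251 to 352. The 7 neuron markers summed to 283 to 335, 101 to 135 and 466 to 680, the 7 glia markers to 7.19 to 8.43, 17.8 to 20.3 and 39.4 to 71.2, and the 7 feeder fibroblast markers to 8.95 to 21.4 over all libraries. Within these lists the genes did not all move the same way. In ES libraries Thy1 was at 8.61 to 14.04, with Dcn, Lum and Postn at 0, and Col1a1 went from 0.29 to 0.44 there to 4.58 to 10.1 in EBs. Stmn2 was at 160 to 197 in ES and 93.3 to 193 in N2B27 libraries. Gfap was at 0.46 to 0.87 and 0 to 0.08, and Fabp7 at 0 to 0.30 and 17.6 to 52.96.

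**Figure D1:**
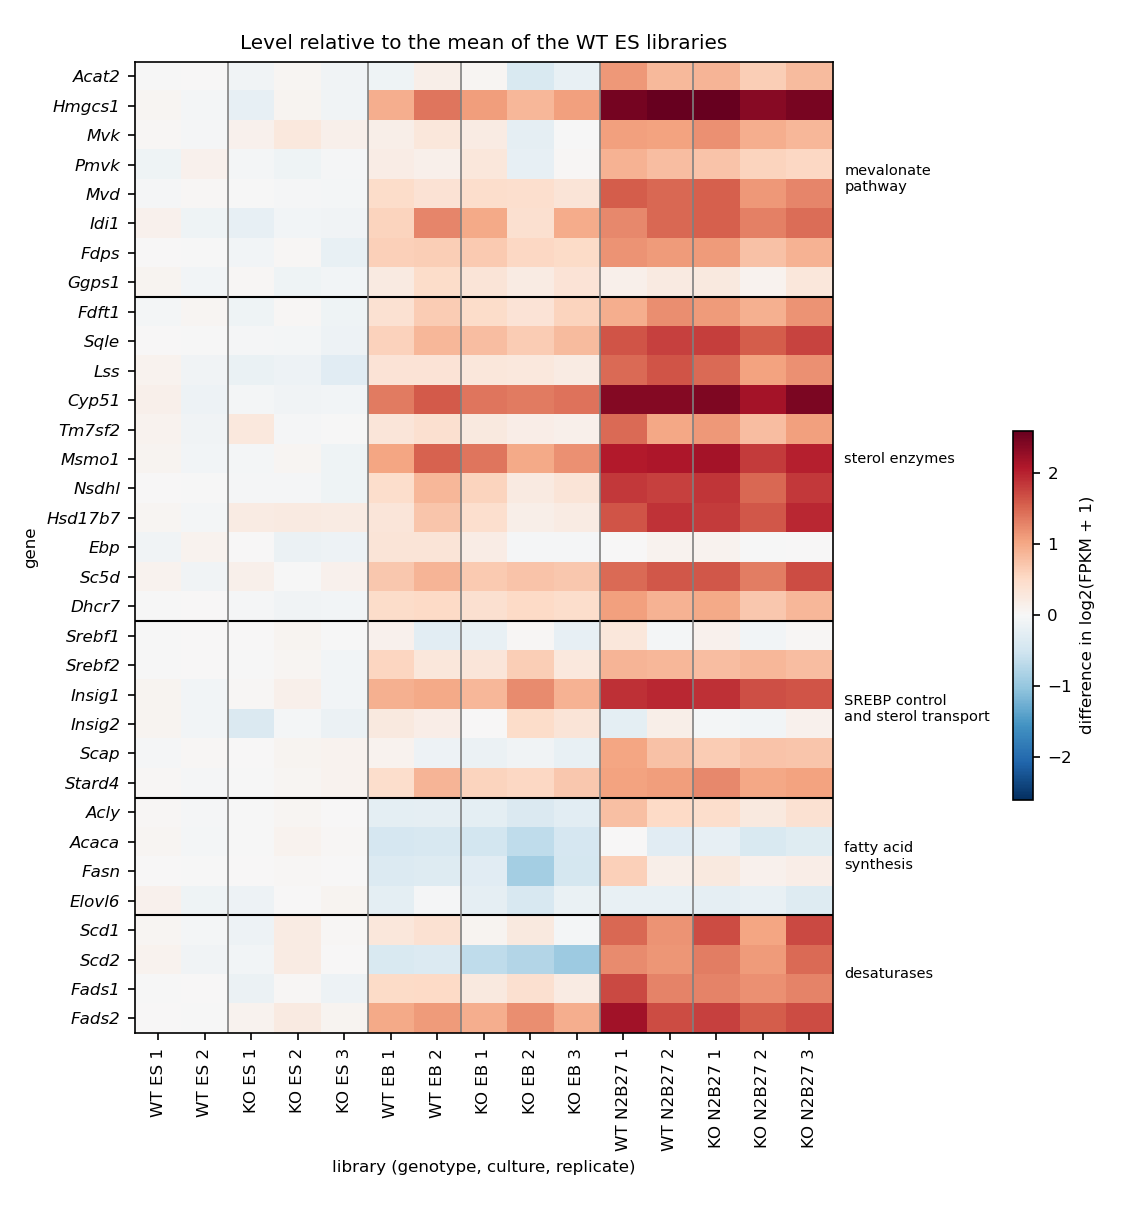
Heat map of the 33 genes (rows, grouped by role) in the 15 libraries (columns, grouped by culture and genotype), with colour for log2(FPKM + 1) minus the mean of the WT ES libraries. The N2B27 columns are high for nearly all cholesterol genes and for the desaturases, and the EB columns are low for Acly, Acaca, Fasn and Scd2.

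Most cholesterol synthesis genes rose from ES cells to EBs and more of them rose from ES cells to N2B27, while none of the 4 fatty acid synthesis genes rose in EBs. In EBs 5 of 8 mevalonate genes rose in each genotype, with 10 (WT) and 8 (KO) of 11 sterol enzymes, and in N2B27 7 (WT) and 8 (KO) mevalonate genes rose, with 10 sterol enzymes in each genotype. In WT cells 20 of the 33 genes rose from ES cells to EBs and 3 fell, with 35.8% of all tested genes called higher and 23.6% called lower, and in KO cells 19 rose and 6 fell, against 36.2% and 28.5%. From ES cells to N2B27, 27 rose and 0 fell in WT, against 41.5% and 29.2% of all genes, and 27 rose and 2 fell in KO, against 43.5% and 33.2%. The median log2 change of the 33 genes was 0.43 in WT and 0.42 in KO for EBs, where all genes had medians of 0.11 and 0.06, and 1.14 and 1.06 for N2B27, where all genes had medians of 0.12 and 0.11. The tests were made with limma on log2(FPKM + 1) at a Benjamini-Hochberg adjusted p under 0.05 over all 12929 genes, and each value after ± is the standard error unless named otherwise. Both sets of changes are measured from the same ES libraries, so they are not independent of each other. Medium, differentiation and time changed together and cannot be told apart, and in bulk RNA a change in the share of a cell type cannot be told apart from a change in RNA per cell. The part of the marker shifts above in these changes was not tested.

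The summed FPKM of the 33 genes made up 0.161% to 0.179% of a library's total in ES cells, 0.187% to 0.231% in EBs and 0.376% to 0.455% in N2B27. Culture orders were counted with the libraries of both genotypes pooled. For 16 of the 33 genes every ES library lay below every EB library and every EB library below every N2B27 library, an order held by 12.9% of all tested genes. These genes were Hmgcs1, Mvd, Fdps, Fdft1, Sqle, Lss, Cyp51, Msmo1, Nsdhl, Sc5d, Dhcr7, Srebf2, Insig1, Stard4, Fads1 and Fads2. Another 4 genes, Acly, Acaca, Fasn and Scd2, had every EB library below all ES and all N2B27 libraries of both genotypes, an order held by 7.49% of all tested genes. All N2B27 libraries lay above all ES and EB libraries of both genotypes for 26 of the 33, against 25.7% of all tested genes.

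**Figure D2:**
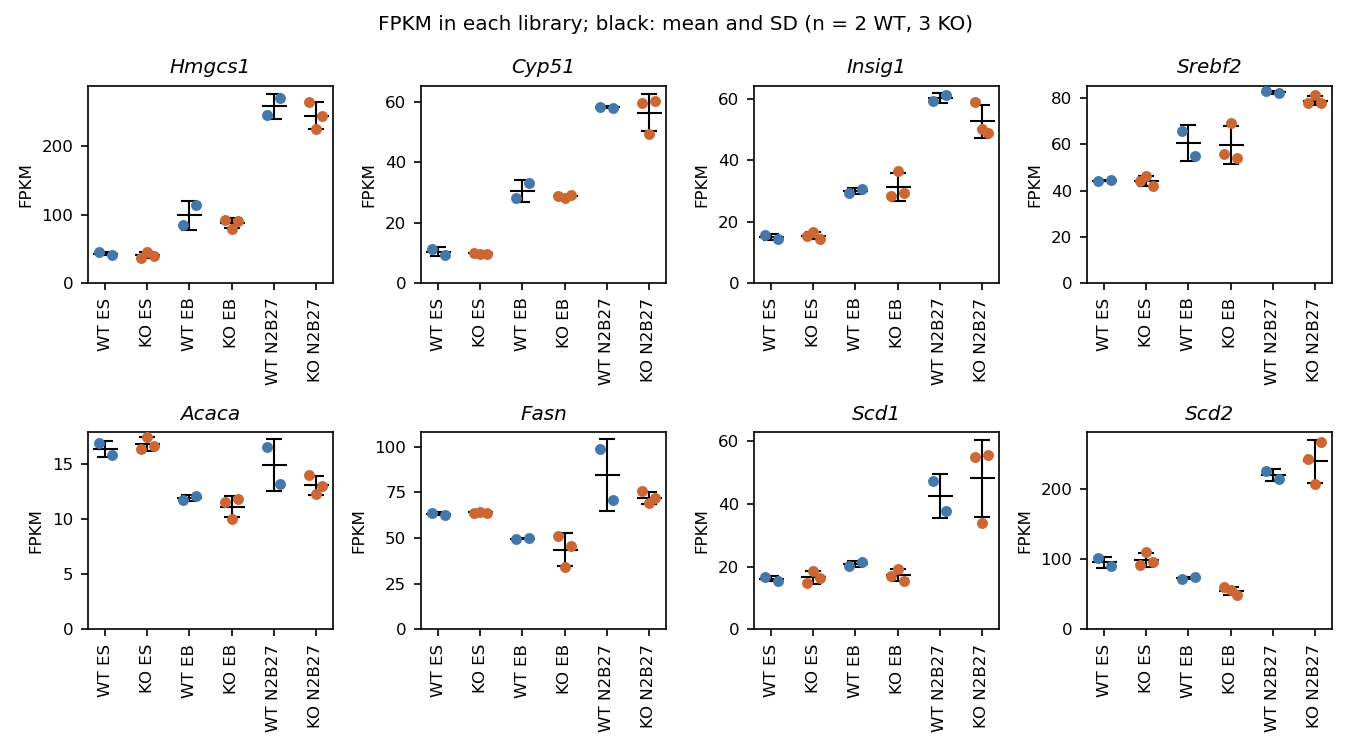
FPKM (vertical axes, from 0) of 8 of the genes in the 6 groups, with a point for each library, WT in blue, KO in orange, and black bars for the group mean and SD (n = 2 WT, 3 KO). Hmgcs1, Cyp51 and Insig1 step up from ES cells to EBs to N2B27, while Fasn and Scd2 are lowest in EBs.

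The mevalonate genes were led by Hmgcs1, which joins acetyl-CoA to acetoacetyl-CoA to give HMG-CoA. Its FPKM was 44.8 and 41.2 in WT and 36.8, 45.1 and 40.02 in KO ES libraries. Hmgcs1 was measured at 84.2 and 114 in WT and 92.6, 78.6 and 91.3 in KO EB libraries and 245 and 271 in WT and 264, 225 and 244 in KO N2B27 libraries. The cultures did not overlap, and the N2B27 libraries held the highest levels of Hmgcs1 in the study. The log2 change from ES cells was 1.17 ± 0.14 in WT EBs (adjusted p = 5.81e-06) and 1.09 ± 0.11 in KO EBs (adjusted p = 1.18e-06). In N2B27 it was 2.56 ± 0.14 in WT and 2.56 ± 0.11 in KO, the largest rise of any of the 33 genes there in both genotypes. Mvd, the decarboxylase that yields isopentenyl diphosphate, stood at 17.1 to 18.2 in all ES libraries, 22.8 to 25.2 in EBs and 40.3 to 54.5 in N2B27. Fdps, which makes farnesyl diphosphate, stood at 58.8 to 68.7, 94.95 to 109 and 115 to 153. For these genes too the 3 cultures did not overlap, and the log2 change in N2B27 was 1.53 ± 0.11 (WT) and 1.35 ± 0.09 (KO) for Mvd and 1.14 ± 0.11 and 1.003 ± 0.09 for Fdps.

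Other mevalonate genes rose in N2B27 without a call in EBs. Acat2, the thiolase that forms acetoacetyl-CoA, had an FPKM of 34.6 and 35.4 in WT and 32.9, 36.2 and 32.7 in KO ES libraries. Acat2 lay at 32.4 and 38.8 in WT and 36.2, 26.6 and 30.3 in KO EB libraries and 78.02 and 63.3 in WT and 65.3, 54.97 and 62.4 in KO N2B27 libraries. ES cells and EBs overlapped, and N2B27 lay above both. Its log2 change was 0.02 ± 0.14 in WT EBs (adjusted p = 0.917) and 0.99 ± 0.14 in WT N2B27 (adjusted p = 1.77e-05). The kinases Mvk and Pmvk, which phosphorylate mevalonate in turn, changed by 1.06 ± 0.13 and 0.86 ± 0.13 in WT N2B27 and by 0.83 ± 0.11 and 0.69 ± 0.11 in KO N2B27, and neither was called in EBs. Without KO EB replicate 1, Mvk was called lower in KO EBs (-0.30, adjusted p = 0.0203), and with it the value was -0.19 ± 0.11 (adjusted p = 0.148).

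Idi1, the isomerase that makes dimethylallyl diphosphate, was the most variable of the 33 genes in EBs, with an FPKM of 47.2 and 76.6 in WT and 62.8, 42.2 and 62.4 in KO EB libraries against 33.8 and 29.1 in WT and 26.9, 29.8 and 29.2 in KO ES libraries and 75.6 and 90.3 in WT and 94.1, 79.4 and 87.1 in KO N2B27 libraries. The coefficient of variation of Idi1 was 33.6% over the 2 WT EB libraries and 21.1% over the 3 KO EB libraries, where the medians over the 33 genes were 6.86% and 8.97%. Its log2 change in EBs was 0.92 ± 0.21 in WT and 0.92 ± 0.17 in KO, and the WT value was 0.57 (adjusted p = 0.0297) without WT EB replicate 2. In N2B27 Idi1 rose by 1.37 ± 0.21 in WT and 1.57 ± 0.17 in KO. Ggps1, which makes the geranylgeranyl diphosphate used to anchor proteins in membranes rather than sterols, was called in other comparisons. Its level was 9.08 and 8.08 in WT and 8.75, 7.85 and 8.17 in KO ES libraries. Ggps1 was found at 10.2 and 12.3 in WT and 11.1, 10.02 and 11.3 in KO EB libraries and 9.45 and 10.2 in WT and 10.5, 9.16 and 10.8 in KO N2B27 libraries. It rose in EBs (0.36 ± 0.11 in WT, 0.35 ± 0.09 in KO) and was 0.18 ± 0.11 in WT N2B27 (adjusted p = 0.161) and 0.27 ± 0.09 in KO N2B27 (adjusted p = 0.0157). The WT EB call for Ggps1 ended without WT ES replicate 2 or WT EB replicate 2 (adjusted p = 0.105 and 0.141). Its KO N2B27 call ended without KO ES replicate 2 or without KO N2B27 replicate 1 or 3 (adjusted p = 0.0592, 0.0541 and 0.0622).

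Of the 11 sterol enzymes, 10 rose in WT EBs and 8 in KO EBs, and 10 rose in N2B27 in each genotype. The shares of all genes called higher were 35.8% (WT) and 36.2% (KO) in EBs and 41.5% and 43.5% in N2B27. The median change of the 11 relative to the WT ES mean was 0.35 to 0.72 across the 5 EB libraries and 1.32 to 1.69 across the 5 N2B27 libraries, so each N2B27 library lay above each EB library. The early members make squalene and close its rings. Fdft1, squalene synthase, changed by 0.53 ± 0.12 in WT EBs and 1.08 ± 0.12 in WT N2B27. Sqle, squalene epoxidase, had an FPKM of 25.6 and 25.02 in WT and 24.6, 24.3 and 23.1 in KO ES libraries. Sqle stood at 38.9 and 46.6 in WT and 44.9, 40.5 and 45.5 in KO EB libraries and 80.9 and 88.9 in WT and 89.9, 77.4 and 87.8 in KO N2B27 libraries, with no overlap between cultures. Its log2 change was 0.73 ± 0.10 in WT EBs, 0.84 ± 0.08 in KO EBs, 1.71 ± 0.10 in WT N2B27 and 1.78 ± 0.08 in KO N2B27. Lss, lanosterol synthase, was a gene of low level, at 6.63 and 5.79 in WT and 5.43, 5.59 and 4.84 in KO ES libraries. Lss was measured at 8.16 and 8.17 in WT and 7.84, 7.69 and 7.31 in KO EB libraries and 19.1 and 21.3 in WT and 18.9, 13.9 and 15.5 in KO N2B27 libraries. In N2B27 Lss rose by 1.56 ± 0.12 in WT and 1.43 ± 0.10 in KO. Its smaller rise in WT EBs (0.35 ± 0.12, adjusted p = 0.0253) lost its call without WT ES replicate 2 (adjusted p = 0.168), WT EB replicate 1 (0.0775) or WT EB replicate 2 (0.0785).

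The enzymes that strip methyl groups from lanosterol included the strongest responses in EBs. Cyp51, lanosterol demethylase, had an FPKM of 11.4 and 9.31 in WT and 9.91, 9.64 and 9.74 in KO ES libraries. Cyp51 lay at 27.98 and 33.2 in WT and 28.8, 27.99 and 29.1 in KO EB libraries and 58.4 and 57.9 in WT and 59.5, 49.4 and 60.4 in KO N2B27 libraries. The lowest EB library (28.0) lay far above the highest ES library (11.4), and the N2B27 libraries lay higher still. Its log2 change in EBs was 1.48 ± 0.11 in WT (adjusted p = 7.78e-08) and 1.46 ± 0.09 in KO (adjusted p = 7.79e-09), and in N2B27 it was 2.39 ± 0.11 and 2.41 ± 0.09. Msmo1, the methylsterol monooxygenase, stood at 43.6 and 39.1 in WT and 39.9, 42.7 and 38.2 in KO ES libraries. Msmo1 was found at 85.04 and 121 in WT and 110, 82.2 and 95.9 in KO EB libraries and 176 and 180 in WT and 188, 148 and 171 in KO N2B27 libraries. Its changes were 1.28 ± 0.16 and 1.23 ± 0.13 in EBs (WT, KO) and 2.08 ± 0.16 and 2.03 ± 0.13 in N2B27. Nsdhl, the sterol dehydrogenase of the same demethylation, changed by 0.66 ± 0.15 and 0.44 ± 0.12 in EBs and 1.81 ± 0.15 and 1.79 ± 0.12 in N2B27.

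Hsd17b7, the keto-sterol reductase that follows Nsdhl, rose in N2B27 from 4.17 and 3.81 in WT and 4.75, 4.84 and 4.75 in KO ES libraries to 14.6 and 17.4 in WT and 16.7, 14.2 and 18.5 in KO N2B27 libraries, a log2 change of 1.76 ± 0.15 in WT and 1.59 ± 0.12 in KO. In EBs it stood at 5.17 and 7.19 in WT and 5.71, 4.53 and 4.79 in KO libraries. The WT change there was 0.51 ± 0.15 (adjusted p = 0.00837) and the KO change 0.05 ± 0.12 (adjusted p = 0.727). The WT call ended without WT ES replicate 2 (0.46, adjusted p = 0.0576) or WT EB replicate 2 (0.31, adjusted p = 0.125). Tm7sf2, a sterol reductase, was called in N2B27 (1.24 ± 0.15 in WT, 0.92 ± 0.13 in KO) and not in EBs.

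The late enzymes split. Sc5d, a sterol desaturase, and Dhcr7, the reductase that gives cholesterol from its immediate precursor, rose in both cultures. Sc5d changed by 0.80 ± 0.12 in WT EBs and 1.54 ± 0.12 in WT N2B27, and Dhcr7 by 0.50 ± 0.09 and 0.99 ± 0.09. Ebp, the isomerase that moves the double bond of the sterol ring, did not share the rise in N2B27. Its FPKM was 9.67 and 11.1 in WT and 10.4, 9.27 and 9.34 in KO ES libraries. Ebp stood at 13.2 and 13.2 in WT and 11.9, 10.2 and 10.2 in KO EB libraries and 10.4 and 11.02 in WT and 11.03, 10.3 and 10.4 in KO N2B27 libraries, so N2B27 overlapped with ES cells in both genotypes. In N2B27 its change was 0.05 ± 0.10 in WT (adjusted p = 0.697) and 0.12 ± 0.08 in KO (adjusted p = 0.185). In WT EBs Ebp rose by 0.33 ± 0.10 (adjusted p = 0.0109), a call that ended without WT ES replicate 1 (adjusted p = 0.109), and the KO change was 0.14 ± 0.08 (adjusted p = 0.153).

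**Figure D3:**
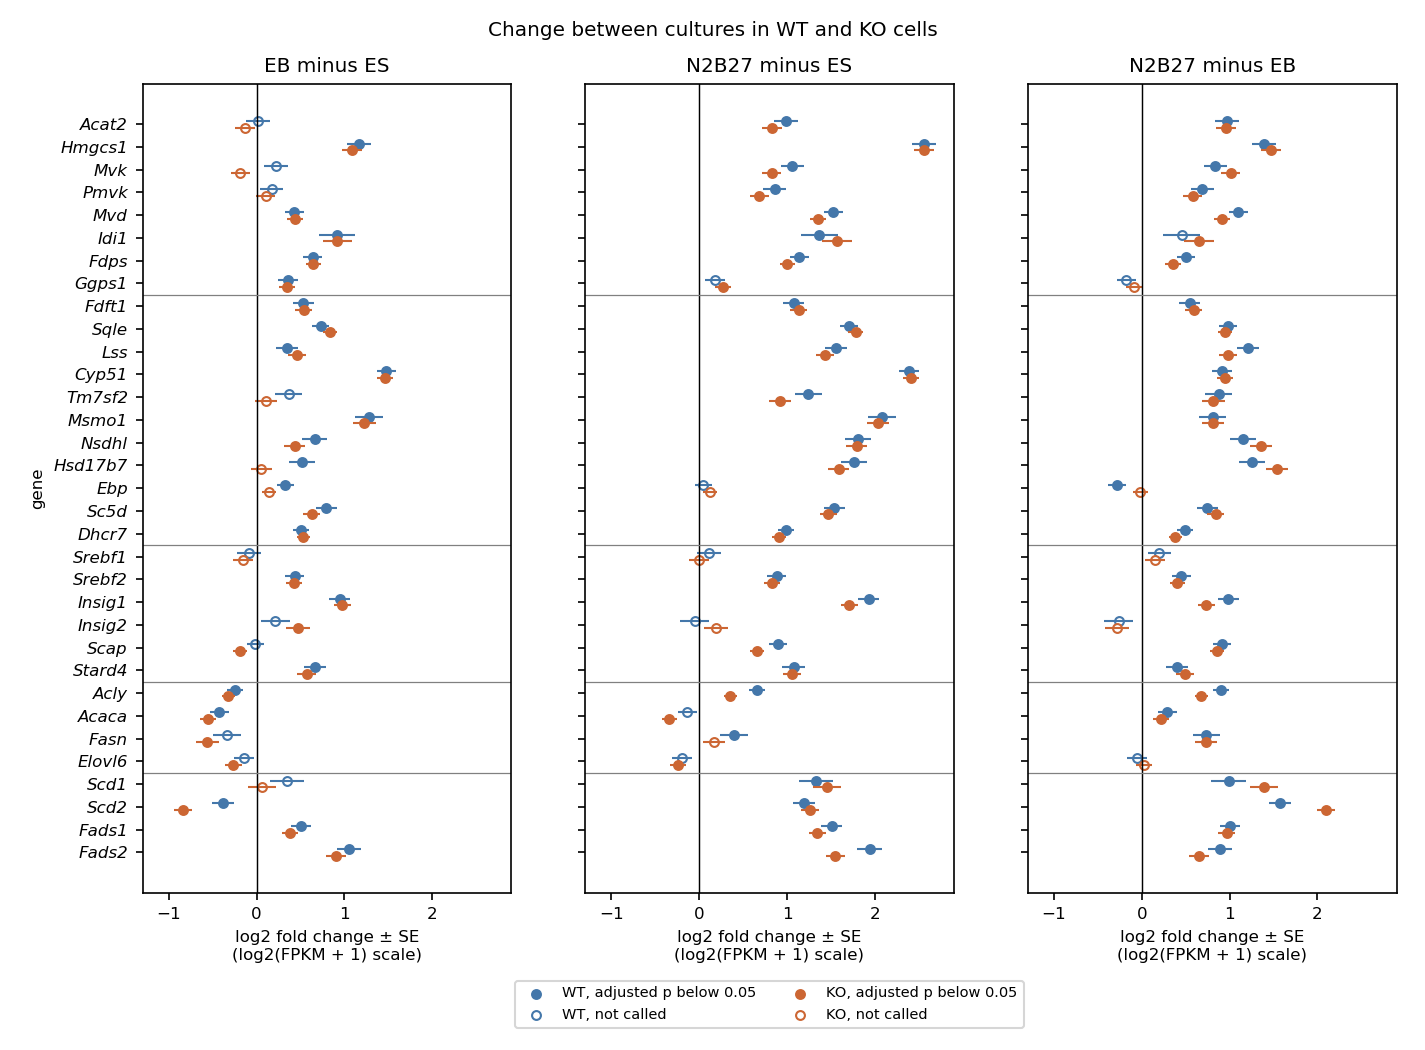
Log2 change of each of the 33 genes between cultures of the same genotype (horizontal axis, log2(FPKM + 1) scale), with genes on the vertical axis grouped by role, panels for EBs against ES cells, N2B27 against ES cells and N2B27 against EBs, WT in blue, KO in orange, filled points for an adjusted p below 0.05 and bars for the standard error. Hmgcs1 and Cyp51 have the largest changes from ES cells to N2B27 in both genotypes, and the fatty acid synthesis genes lie near or below 0 in EBs.

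Among the genes of SREBP control, Srebf2 and Insig1 rose in both cultures and both genotypes, and Srebf1 was not called against ES cells in any. Srebf2 had an FPKM of 44.3 and 44.4 in WT and 43.99, 46.2 and 41.9 in KO ES libraries. Srebf2 was measured at 65.95 and 54.9 in WT and 55.7, 69.2 and 54.2 in KO EB libraries and 82.96 and 82.00 in WT and 77.8, 81.1 and 77.8 in KO N2B27 libraries, with no overlap between cultures. Its log2 change was 0.43 ± 0.11 and 0.42 ± 0.09 in EBs (WT, KO) and 0.88 ± 0.11 and 0.83 ± 0.09 in N2B27, and the WT EB call ended without WT EB replicate 1 (0.30, adjusted p = 0.056). Srebf1 stood at 18.02 and 18.2 in WT and 18.3, 19.2 and 18.02 in KO ES libraries. Srebf1 lay at 19.6 and 14.8 in WT and 15.8, 18.5 and 15.5 in KO EB libraries and 22.4 and 17.4 in WT and 19.7, 17.2 and 18.6 in KO N2B27 libraries, and the 3 cultures overlapped. Its adjusted p against ES cells was 0.602 and 0.235 in EBs and 0.462 and 0.976 in N2B27. For N2B27 against EBs it was 0.218 in WT and 0.238 in KO. With each library scaled to the same total, Srebf1 was called higher in N2B27 than in EBs (0.37 in both genotypes, adjusted p = 0.034 and 0.00921). That scaling moved the median of all genes up by 0.16 in WT and 0.22 in KO. The ratio of Srebf2 to Srebf1 FPKM averaged 2.45 in WT and 2.38 in KO ES cells, 3.54 and 3.59 in EBs, and 4.22 ± 0.72 (SD, n = 2) and 4.29 ± 0.39 (SD, n = 3) in N2B27.

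Insig1, an SREBP target whose protein feeds back on SCAP, had an FPKM of 15.8 and 14.4 in WT and 15.3, 16.6 and 14.4 in KO ES libraries. Insig1 was found at 29.3 and 30.7 in WT and 28.4, 36.7 and 29.3 in KO EB libraries and 59.3 and 61.5 in WT and 59.00, 50.2 and 49.00 in KO N2B27 libraries. No cultures overlapped. The log2 change was 0.95 ± 0.12 and 0.98 ± 0.10 in EBs (WT, KO) and 1.93 ± 0.12 and 1.71 ± 0.10 in N2B27. Insig2, its paralog, stood at 6.22 to 8.90 in ES libraries, 8.44 to 12.2 in EBs and 6.89 to 9.49 in N2B27, and against ES cells was called in KO EBs alone (0.47 ± 0.13, adjusted p = 0.00657). The ratio of Insig1 to Insig2 FPKM averaged 1.79 in WT and 2.15 in KO ES cells, 3.03 and 3.02 in EBs, and 7.54 ± 1.5 (SD, n = 2) and 6.32 ± 0.99 (SD, n = 3) in N2B27. Scap stood at 12.2 to 13.2 in ES libraries, 10.8 to 13.3 in EBs and 20.1 to 26.3 in N2B27. It rose in N2B27 (0.90 ± 0.10 in WT, 0.66 ± 0.08 in KO). In KO EBs its fall (-0.20 ± 0.08, adjusted p = 0.0463) lost its call without any 1 of KO ES replicates 1, 2 and 3 and KO EB replicates 1 and 3 (adjusted p = 0.0614 to 0.121). Stard4, which carries cholesterol between membranes, was at 4.08 to 4.53 in ES libraries, 6.18 to 8.58 in EBs and 9.43 to 11.3 in N2B27, with log2 changes of 0.67 ± 0.13 and 1.07 ± 0.13 in WT.

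None of the 4 fatty acid synthesis genes was called higher in EBs, against 35.8% of all genes in WT and 36.2% in KO. Acly, which releases acetyl-CoA from citrate, had an FPKM of 96.2 and 91.5 in WT and 93.7, 96.9 and 94.8 in KO ES libraries. Acly stood at 77.9 and 80.2 in WT and 78.2, 72.1 and 77.5 in KO EB libraries and 163 and 135 in WT and 129, 113 and 125 in KO N2B27 libraries. The EB libraries were the lowest and the N2B27 libraries the highest, without overlap. Acly changed by -0.24 ± 0.09 in WT EBs (adjusted p = 0.0343), -0.32 ± 0.08 in KO EBs, 0.66 ± 0.09 in WT N2B27 and 0.35 ± 0.08 in KO N2B27. The WT EB call for Acly ended without WT ES replicate 1 or 2 or WT EB replicate 1 or 2 (adjusted p = 0.152, 0.0622, 0.124 and 0.0724). Acaca, acetyl-CoA carboxylase, stood at 16.9 and 15.8 in WT and 16.3, 17.4 and 16.6 in KO ES libraries. Acaca was measured at 11.7 and 12.1 in WT and 11.5, 9.99 and 11.8 in KO EB libraries and 16.5 and 13.2 in WT and 13.9, 12.2 and 12.98 in KO N2B27 libraries. It fell in EBs (-0.43 ± 0.11 in WT, -0.56 ± 0.09 in KO), and in N2B27 it fell in KO (-0.34 ± 0.09, adjusted p = 0.00304) with -0.14 ± 0.11 in WT (adjusted p = 0.273). Without WT N2B27 replicate 1, Acaca was called lower in WT N2B27 too (-0.29, adjusted p = 0.0428).

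Fasn, fatty acid synthase, had an FPKM of 63.9 and 62.9 in WT and 63.8, 64.5 and 63.9 in KO ES libraries. Fasn lay at 49.4 and 50.1 in WT and 51.2, 33.97 and 45.9 in KO EB libraries and 98.5 and 70.8 in WT and 75.6, 68.97 and 71.9 in KO N2B27 libraries. All EB libraries lay below all ES libraries, and all N2B27 libraries lay above them, with WT N2B27 replicate 1 far above the other 4. The change in EBs was -0.34 ± 0.16 in WT (adjusted p = 0.0766) and -0.56 ± 0.13 in KO (adjusted p = 0.00161). In N2B27 it was 0.39 ± 0.16 in WT (adjusted p = 0.0381) and 0.17 ± 0.13 in KO (adjusted p = 0.247). The WT N2B27 call ended without WT ES replicate 1 (adjusted p = 0.0965), WT ES replicate 2 (0.117) or WT N2B27 replicate 1, where the change was 0.16 (adjusted p = 0.422), and without WT N2B27 replicate 2 it was 0.63. Elovl6, which elongates palmitate, was at 23.4 to 28.2 in ES libraries, 19.0 to 25.4 in EBs and 20.2 to 22.6 in N2B27. It was called lower in KO EBs (-0.26 ± 0.09) and KO N2B27 (-0.24 ± 0.09) and not in WT. Both calls ended without KO ES replicate 2 (adjusted p = 0.0684 and 0.0824) or KO ES replicate 3 (0.0953 and 0.117), the EB call also without KO EB replicate 2 (0.0999), and the N2B27 call also without KO N2B27 replicate 1 (0.057) or 3 (0.108). The ratio of Hmgcs1 to Fasn FPKM averaged 0.678 in WT and 0.635 in KO ES cells, 1.99 and 2.04 in EBs, and 3.16 and 3.38 in N2B27.

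The 4 desaturases all rose in N2B27 in both genotypes, against 41.5% of all genes in WT and 43.5% in KO, and in EBs they went different ways. Scd1 and Scd2 place the first double bond in saturated fatty acids. Scd2 had an FPKM of 101 and 89.98 in WT and 90.9, 110 and 95.6 in KO ES libraries. Scd2 was found at 71.8 and 74.1 in WT and 59.6, 56.04 and 48.7 in KO EB libraries and 225 and 213 in WT and 242, 207 and 267 in KO N2B27 libraries. EBs were lowest and N2B27 highest, with no overlap. Its log2 change in EBs was -0.38 ± 0.12 in WT (adjusted p = 0.0165) and -0.84 ± 0.10 in KO (adjusted p = 5.97e-06), and in N2B27 1.19 ± 0.12 and 1.26 ± 0.10. The WT EB call ended without WT ES replicate 1 (adjusted p = 0.121) or WT EB replicate 1 (0.072). Scd1 stood at 16.7 and 15.5 in WT and 14.6, 18.7 and 16.5 in KO ES libraries. Scd1 stood at 20.03 and 21.5 in WT and 17.1, 19.3 and 15.5 in KO EB libraries and 47.2 and 37.5 in WT and 54.8, 33.9 and 55.4 in KO N2B27 libraries. Its EB changes were not called (0.35 ± 0.20 in WT, adjusted p = 0.142, and 0.06 ± 0.16 in KO, adjusted p = 0.776), and its N2B27 changes were 1.33 ± 0.20 and 1.45 ± 0.16. The ratio of Scd2 to Scd1 FPKM averaged 5.92 in WT and 5.96 in KO ES cells, 3.51 ± 0.095 (SD, n = 2) and 3.18 ± 0.30 (SD, n = 3) in EBs, and 5.22 and 5.11 in N2B27. Scd1 and Scd2 are close paralogs, and how the authors' counting divided fragments that match both was not tested.

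Fads1 and Fads2, neighbours on chromosome 19 that desaturate polyunsaturated fatty acids, rose in both cultures. Fads2 had an FPKM of 20.2 and 20.1 in WT and 21.7, 23.99 and 21.1 in KO ES libraries. Fads2 was measured at 41.04 and 44.4 in WT and 39.8, 48.1 and 39.8 in KO EB libraries and 94.9 and 67.4 in WT and 71.5, 62.3 and 67.6 in KO N2B27 libraries, and the cultures did not overlap. It changed by 1.05 ± 0.14 and 0.90 ± 0.11 in EBs (WT, KO) and by 1.94 ± 0.14 and 1.55 ± 0.11 in N2B27. Fads1 changed by 0.50 ± 0.12 and 0.38 ± 0.10 in EBs and by 1.51 ± 0.12 and 1.35 ± 0.10 in N2B27. For both genes WT N2B27 replicate 1 was the highest library.

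Compared directly, N2B27 stood above EBs for 27 genes and below for 1 in WT, against 31.2% and 25.3% of all genes, and above for 28 and below for 0 in KO, against 38.8% and 29.6%. The median change of the 33 genes was 0.84 in WT and 0.73 in KO, where all genes had 0.04 and 0.06. With each library scaled to the same total, the median of all genes moved up by 0.16 in WT and 0.22 in KO, and 29 and 31 of the 33 were called higher and 0 lower. The largest difference was that of Scd2 in both genotypes (1.57 ± 0.12 in WT, 2.10 ± 0.10 in KO), followed in WT by Hmgcs1 (1.39 ± 0.14) and in KO by Hsd17b7 (1.54 ± 0.12). Fasn, which had fallen in KO EBs, was higher in N2B27 than in EBs in both genotypes (0.74 ± 0.16 and 0.73 ± 0.13). Ebp was the gene lower in WT N2B27 (-0.28 ± 0.10, adjusted p = 0.0256). That call ended without WT EB replicate 1 or 2 or WT N2B27 replicate 1 (adjusted p = 0.0796, 0.0791 and 0.122), and with each library scaled to the same total it was -0.13 (adjusted p = 0.28). Acaca was higher in N2B27 by 0.29 ± 0.11 in WT and 0.22 ± 0.09 in KO, and these calls ended without WT EB replicate 1 or 2 or WT N2B27 replicate 1 (adjusted p = 0.123, 0.0794 and 0.356, the last with a change of 0.14), and without KO EB replicate 2 or KO N2B27 replicate 1 or 3 (0.16, 0.152 and 0.078). Stard4 was higher by 0.41 ± 0.13 in WT, which fell to 0.20 without WT EB replicate 1 (adjusted p = 0.209) and to 0.39 without WT N2B27 replicate 2 (adjusted p = 0.0625), and was 0.61 without WT EB replicate 2. Idi1 was not called in WT (0.45 ± 0.21, adjusted p = 0.0751) and was called without WT EB replicate 2 (0.80, adjusted p = 0.00571).

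Loss of Mettl5 was compared within each culture. By limma, 0 of the 33 genes passed the test in ES cells, where 0% of all genes were called, 0 in EBs, where 2.27% were called, and 0 in N2B27, where 0.101% were called. The share of all genes called rested on single libraries. In place of 293 genes in EBs, 383 were called without KO EB replicate 1, 353 without KO EB replicate 2 and 74 without KO EB replicate 3. Fewer than 293 were called without either WT EB library, which leaves 1 in the group. In place of 13 genes in N2B27, 0 to 249 were called without 1 KO N2B27 library, the most without replicate 2. The count of the 33 was 0 in each of these. At an unadjusted p under 0.05 the counts were 0, 2 and 4 of 33, against 3.46%, 14.7% and 8.85% of all genes. Over the mean of the 3 cultures of libraries that share a name, 0 of 33 passed, against 0.0541% of all genes, and 3 had an unadjusted p under 0.05, against 11.6%. The 95% confidence interval of the difference lay within 1.5-fold of FPKM + 1 in either direction for 33 of 33 genes in ES cells, 31 of 33 in EBs and 33 of 33 in N2B27. The fold in FPKM itself is wider, most so for genes of low level. Its outermost bounds on the log2 scale were -0.53 (Idi1) and 0.50 (Hsd17b7) in ES cells, -0.65 (Scd2) and 0.38 (Insig2) in EBs, and -0.56 (Lss) and 0.53 (Scd1) in N2B27. No genotype difference in a culture change was called either: 0 of 33 for EBs against ES cells, 0 for N2B27 against ES cells and 0 for N2B27 against EBs, where 0.155%, 0.00773% and 0.441% of all genes were called and 3, 2 and 1 of the 33 had an unadjusted p under 0.05, against 7.66%, 4.8% and 10% of all genes. Leaving out 1 library at a time, 1 to 69, 0 to 32 and 18 to 245 of all genes were called in these differences in place of 20, 1 and 57, with the last 2 highest without KO N2B27 replicate 2 and the first without KO EB replicate 1.

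**Figure D4:**
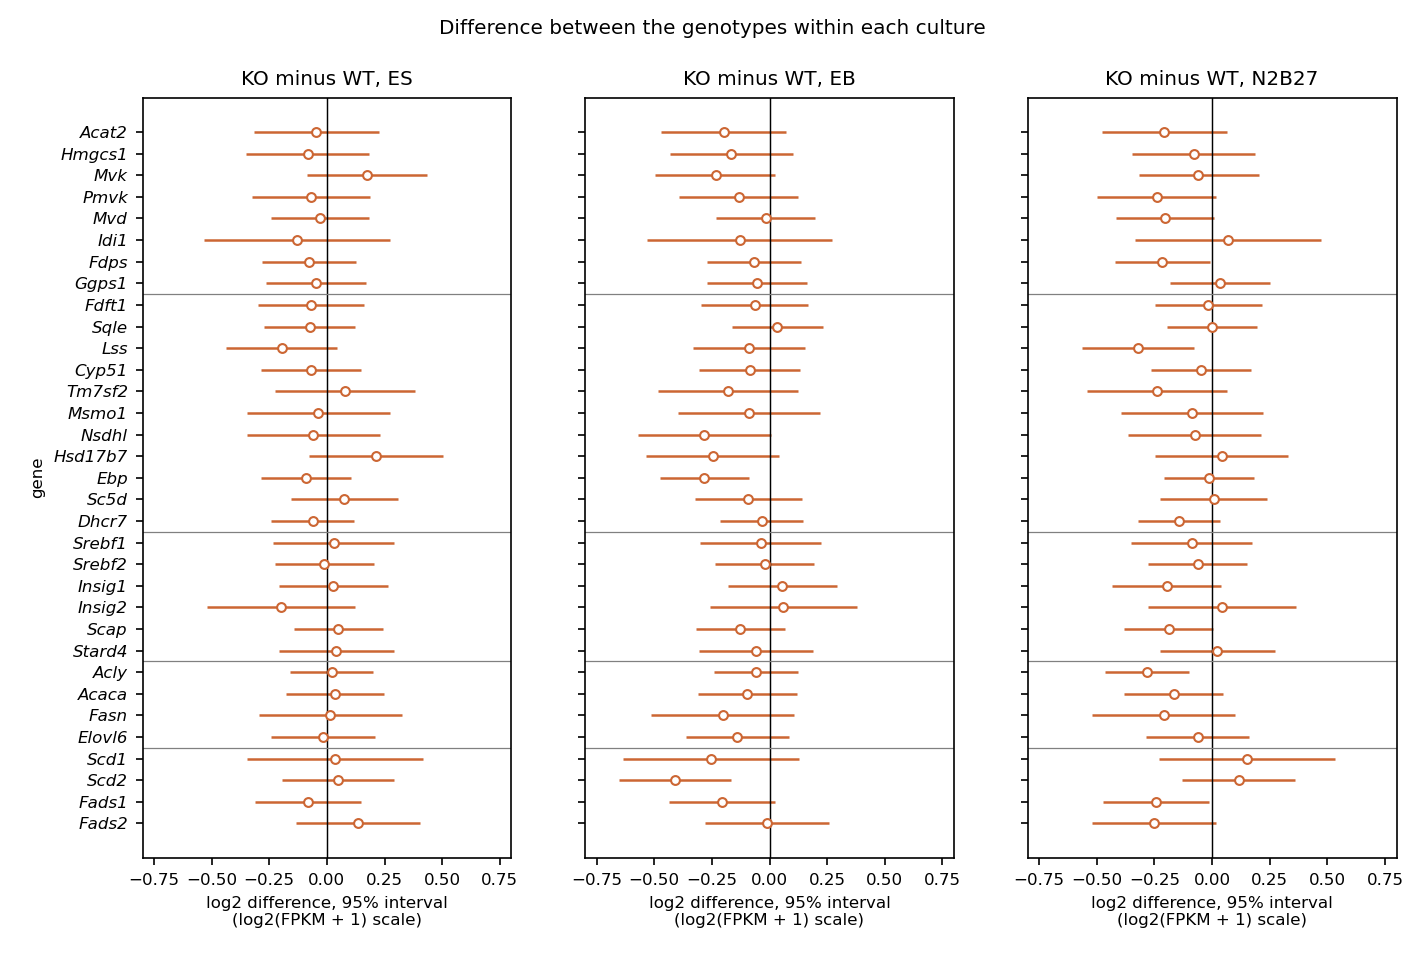
Log2 difference KO minus WT of each of the 33 genes (horizontal axis, log2(FPKM + 1) scale) in ES cells, EBs and N2B27, with genes on the vertical axis grouped by role and bars for the 95% confidence interval. The points lie close to 0 in all 3 cultures, and in EBs the points of 30 of 33 genes lie below 0, with Scd2 the lowest.

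The values nearest to the threshold lay in EBs and N2B27. Scd2 had the smallest adjusted p of the 33 genes in EBs: its FPKM was 71.8 and 74.1 in WT and 59.6, 56.04 and 48.7 in KO libraries, every KO value below both WT values. The difference was -0.41 ± 0.11 (95% confidence interval -0.65 to -0.17, unadjusted p = 0.00283, adjusted p = 0.0823). The genotype difference in its change from ES cells to EBs was -0.46 ± 0.16 (adjusted p = 0.407), and in its change from EBs to N2B27 it was 0.53 ± 0.16 (adjusted p = 0.203). Ebp in EBs differed by -0.28 ± 0.09 (adjusted p = 0.147), with 13.2 and 13.2 in WT and 11.9, 10.2 and 10.2 in KO libraries. In N2B27 the lowest adjusted p was that of Acly, with 163 and 135 in WT and 129, 113 and 125 in KO libraries and a difference of -0.28 ± 0.08 (adjusted p = 0.248), followed by Lss (-0.32 ± 0.11, adjusted p = 0.374). Lss had every KO library below every WT library in each of the 3 cultures, and over the mean of the cultures it differed by -0.20 ± 0.07 (adjusted p = 0.307), beside Fads1 at -0.18 ± 0.06 (adjusted p = 0.295).

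Without overlap between genotypes, 3 genes were higher in KO ES cells (Mvk, Hsd17b7 and Fads2) and 4 lower (Sqle, Lss, Nsdhl and Dhcr7), where 12.7% and 11.3% of all tested genes had such orders. In EBs 0 were higher and 6 lower (Lss, Tm7sf2, Ebp, Scd1, Scd2 and Fads1), against 8.34% and 18.1%, and in N2B27 0 were higher and 7 lower (Pmvk, Fdps, Lss, Srebf2, Insig1, Scap and Acly), against 8.88% and 13.2%. The KO minus WT value was below 0 for 19 of 33 genes in ES cells, 30 in EBs and 24 in N2B27, where 49.1%, 61% and 55.5% of all genes were below 0. With the libraries rescaled by their median ratio to the other libraries these counts were 19, 25 and 22, where 50.7%, 50.1% and 50.2% of all genes were below 0, and with each library scaled to the same total they were 19, 31 and 24, where 51.4%, 69.5% and 52.4% were. Without WT EB replicate 2 the EB count was 22. The median difference of the 33 genes was -0.03, -0.09 and -0.08, where all genes had 0.00, -0.04 and -0.02. Of the KO libraries, N2B27 replicate 2 was the lowest of its group for 27 of 33 genes, against 42.2% of all genes, and N2B27 replicate 1 the highest for 21, against 29.9%. ES replicate 2 was the highest of its group for 21, against 35.6%. EB replicate 2 was the lowest for 17 and the highest for 10, against 39.1% and 38.9%. In EBs the summed FPKM of the 7 streak and mesoderm markers was 113 to 152 in WT and 37.7 to 111 in KO, that of the 11 endoderm markers was 38.5 to 53.8 and 20.4 to 27.3, and that of the 7 neural progenitor markers was 65.5 to 90.1 and 38.2 to 50.5. Their part in the genotype values was not tested.

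Genes around the 2 pathways were counted on 7 further lists. The shares of all genes to read their counts against were 35.8% higher and 23.6% lower in WT EBs, 36.2% and 28.5% in KO EBs, 41.5% and 29.2% in WT N2B27, and 43.5% and 33.2% in KO N2B27. The first list held 8 genes of the lipoprotein receptor families, among them Lrp5 and Lrp6, coreceptors for WNT, and Lrpap1, a chaperone of these receptors. Of the 8, 7 rose and 0 fell in EBs of each genotype, and 7 rose and 1 fell in WT and 6 rose and 1 fell in KO N2B27. They were led by Lrp2, a large receptor of epithelia and neuroepithelium (3.24 ± 0.21 in WT EBs, 4.33 ± 0.21 in WT N2B27), and Vldlr, a receptor for lipoproteins and reelin (1.61 ± 0.30 and 1.67 ± 0.30). In ES libraries Lrp2 had an FPKM of 0.53 to 0.97 and Vldlr of 0.14 to 0.24. Both passed the filter on low values only through EB and N2B27 libraries, so the filter favoured a rise from ES cells. Of 14 genes that process or turn over SREBP, SCAP and INSIG, 6 rose and 2 fell in WT EBs, 6 rose and 3 fell in KO EBs, 9 rose and 2 fell in WT N2B27, and 8 rose and 2 fell in KO N2B27. Without WT ES replicate 2, 5 of these 14 were called in WT EBs in place of 8.

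Against the same shares of all genes, of 17 tested genes of sterol export, storage and the oxysterol response, 10 rose and 4 fell in WT EBs, 9 and 4 in KO EBs, 8 and 4 in WT N2B27, and 8 and 5 in KO N2B27. Soat1, which esterifies cholesterol for storage, rose by 2.45 ± 0.12 in WT EBs and 2.02 ± 0.12 in WT N2B27, and Cyp46a1, the brain enzyme that hydroxylates cholesterol, rose by 1.92 ± 0.23 in WT N2B27. Cyp46a1 had an FPKM of 0.32 to 0.57 in ES libraries and passed the filter only through EB and N2B27 libraries, which favoured a rise. Cyp39a1 also needed its EB or N2B27 libraries to pass, which favoured a rise. Abca1 passed only through ES libraries and Abcg1 only through ES and EB libraries, which favoured falls. All of them are among the 17 tested genes. Of 13 genes of the isoprenoid branches, which make dolichol, ubiquinone side chains and prenyl anchors, 2 rose and 3 fell in WT EBs, 2 and 4 in KO EBs, 6 and 3 in WT N2B27, and 6 and 4 in KO N2B27. The number called in EBs was 1 in WT without WT ES replicate 2 and 2 in KO without KO ES replicate 3. In WT N2B27, Dhdds, a subunit of the dolichol synthase, rose by 0.96 ± 0.11 and Rabggta, a subunit of the enzyme that prenylates Rab proteins, changed by -1.14 ± 0.10.

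Against the same shares of all genes, of 27 tested other genes of fatty acid and acyl-CoA synthesis, 12 rose and 4 fell in WT EBs, 16 and 6 in KO EBs, and 12 and 9 in N2B27 of each genotype. Elovl2, an elongase of polyunsaturated fatty acids, rose by 1.97 ± 0.15 in WT N2B27, and Acacb, the mitochondrial acetyl-CoA carboxylase, changed by -1.60 ± 0.10. Acacb had an FPKM of 0.36 to 0.54 in N2B27 libraries and passed the filter only through ES and EB libraries, which favoured a fall. Mlxipl and Scd3 also passed only through ES and EB libraries, and Thrsp only through ES libraries, which favoured falls. Fads3 passed only through N2B27 libraries and Elovl7 only through EB and N2B27 libraries, which favoured rises. All of them are among the 27 tested genes. Of 18 tested glycerolipid synthesis genes, 7 rose and 3 fell in EBs of each genotype, 7 and 2 in WT N2B27, and 7 and 4 in KO N2B27. Agpat4 and Agpat2, acyltransferases of phospholipid and triglyceride synthesis, changed by 1.74 ± 0.13 and -1.81 ± 0.15 in WT N2B27. Of 21 tested fatty acid oxidation genes, 7 rose and 7 fell in WT EBs, 7 and 9 in KO EBs, 7 and 8 in WT N2B27, and 9 and 8 in KO N2B27. Cpt1a, which brings long-chain fatty acids into mitochondria, had the largest fall, a log2 change of -2.63 ± 0.21 in WT EBs and -3.44 ± 0.21 in WT N2B27, and Cpt1c, its neuronal paralog, rose by 1.51 ± 0.11 in WT N2B27. Between genotypes 1 gene of these 7 lists was called, Stard3 in EBs (-0.39 ± 0.09, adjusted p = 0.0495), a carrier of cholesterol in late endosomes. Its FPKM was 12.5 and 11.1 in WT and 8.07 to 9.36 in KO EBs. The call ended without WT EB replicate 1 or 2 or KO EB replicate 1 or 3 (adjusted p = 0.236, 0.142, 0.0616 and 0.198).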

How the data were processed

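The authors deposited FPKM values of 18762 genes in 15 libraries, with 2 decimals, per the file headers. Trizol RNA was, per the labels' protocols, purified with oligo(dT) beads, fragmented and primed with random hexamers. The submitters' processing notes name Bowtie2, RSEM and mm10, and versions, annotation and strandedness are not given in the sources used here. Groups came from the titles. The labels do not state that replicates were separate cultures, so the p-values rest on a spread between libraries that may be technical.

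FPKM are not counts, so log2(FPKM + 1) was tested with limma 3.58.1 (R 4.3.3, mean-variance trend) in 1 fit of 15 libraries (9 residual degrees of freedom), with Benjamini-Hochberg adjustment at 0.05 over the 12929 genes that reached an FPKM of 1 in 2 or more libraries. Fold changes on this scale understate those of low genes. Cultures averaged by library name gave a further genotype fit (3 residual degrees of freedom). The fit was tested on simulated data. Alternatives were a pseudocount of 0.1, no filter, 2 scalings, fits of the compared groups alone, a replicate block and leaving out each library. The depth is not given in the sources used here. If low values are whole multiples of 1 fragment, the totals that made most values whole were 16100000 to 18100000 fragments, but 49.6% to 64.4% of 90 to 116 values per library came out whole (tolerance 0.1), so no count test was run.

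The 33 genes and the 7 other lists (lipoprotein uptake, SREBP processing, sterol export and storage, isoprenoid branches, other fatty acid synthesis, glycerolipid synthesis and fatty acid oxidation) were chosen with earlier results of these data known. From each list at most 4 genes per comparison, those with the largest change among the called, could be named. Of the gene IDs, 18717 matched RefSeq (GRCm38.p6), which gave promoters and chromosomes.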

Additional observations from a re-analysis of the deposited data

How the results depend on the processing

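Under every alternative the number of the 33 genes called stayed within 1.5 times the reported one. Leaving out 1 KO library at a time gave 23 to 25 of the 33 genes called in KO for EBs against ES cells. It gave 27 to 29 for N2B27 against ES cells and 27 to 29 for N2B27 against EBs. Leaving out a WT library leaves 1 in its group, so those counts are not given. Of all 12929 genes, 7607 to 8225, 9348 to 9654 and 8209 to 8787 were called in KO without 1 library, in the same order of comparisons. Under the other alternatives, 7384 to 8336 of all tested genes were called in WT and 8314 to 9207 in KO for EBs against ES cells. For N2B27 it was 8930 to 10358 and 9852 to 11425 against ES cells, and 6072 to 8159 and 8212 to 10153 against EBs. The highest of these came without the filter, where more genes were tested. Of the 33 genes, the other alternatives gave 22 to 24 in WT and 24 to 26 in KO for EBs against ES cells. For N2B27 they gave 26 to 27 and 28 to 30 against ES cells, and 25 to 29 and 27 to 31 against EBs. For KO against WT and for the genotype differences in culture changes the number was 0 under each of them. Of the single-gene values under alternatives, 4965 kept their direction or stayed uncalled on the same side of the threshold, 61 lost their call, 22 gained one and 1 reversed. The reversal was Ebp in KO N2B27 against KO EBs, at -0.02 (adjusted p = 0.874) as deposited and 0.20 (adjusted p = 0.0422) with each library scaled to the same total.

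The same scaling moved the median of all genes up by 0.16 in WT and 0.22 in KO for N2B27 against EBs and by 0.12 in KO for N2B27 against ES cells, and the share of higher calls among all genes from 55.3% to 68.8% and from 56.7% to 71.1% for N2B27 against EBs. For KO against WT that share was 28.7% in EBs as deposited, 43.3% under median-ratio scaling and 18.7% with equal totals, and in N2B27 46.2% of 13 calls, 75% of 8 and 66.7% of 3. In the fit of the compared groups alone, 19 genes were called in EBs in place of 293 and 0 in N2B27 in place of 13. Fasn was called in WT EBs under both scalings (adjusted p = 0.0316 and 0.0404) and when the compared groups were fitted alone (0.0136), and its WT N2B27 call ended under median-ratio scaling (0.0926), without the filter (0.0609) and in the fit of the compared groups (0.0531). Elovl6 lost its KO N2B27 call with equal totals (0.25), Scap its KO EB call under median-ratio scaling (0.0525), and Acaca both calls against EBs (0.127 in KO, 0.052 in WT). Stard3 lost its call under a pseudocount of 0.1, without the filter, under median-ratio scaling and in the fit of the compared groups (adjusted p = 0.0542 to 0.323). The causes were not tested. The CCAAT count was 20 in place of 21 of 26 when the 50 bases after the start were left out.

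With the replicate number as a block (replicate block), 24 and 25 of the 33 genes were called for EBs against ES cells in WT and KO. For N2B27, 27 and 28 were called against ES cells, and 28 and 28 against EBs. Of all genes, 7628 and 8316, 9104 and 9896, and 7167 and 8782 were called, in the same order. Of the 33 genes the block changed 2 calls: Tm7sf2 was called in WT EBs (adjusted p = 0.0359) and Elovl6 was not in KO N2B27 (0.0545). Deviations of libraries with the same number correlated at -0.178 to 0.265 across genes, and 6 of 9 KO pairs and 1 of 3 WT pairs matched best with their own number. Among them were all KO pairs of ES cells and EBs (0.265, 0.056 and 0.211). Each KO library was set against the 3 KO libraries of the other culture and each WT library against 2, so some best matches come by chance. The 2 WT libraries of a culture deviate from their mean by equal and opposite amounts, so a WT match is only the sign of a single correlation. These values do not settle whether the numbers mark pairs, and the main fit did not use them as such.

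With 2 WT libraries a group, a lone library is assumed to vary like the others when its partner is left out. Depth is an estimate, so counting error could not be given for genes of low level such as Lss, Tm7sf2, Hsd17b7 and Stard4.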
